A study of Mus musculus with 2 samples.

Results

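The 42 genes described here encode parts of the motile cilium, together with the transcription factors that switch on the motile cilia programme and a few markers of ependymal cells, the ciliated cells that line the brain ventricles. They were chosen by gene symbol, and all 42 had a row among the 43346 genes of the deposited tables. Total RNA was sequenced from 2 single forebrains of B6NCrl mice at postnatal day 0, with 1 library from pup 3 (replicate 2) and 1 from pup 1 (replicate 1). Both pups belong to 1 group with no treatment, transgene or allele given in the labels, the sex was not collected, and both carry the same donor identifier. Whole forebrain was used, so ependymal, choroid plexus and all other cells contributed to each library, and fewer cells of a type and less RNA per cell cannot be told apart. The smallest two-sided p that exact sign flips allow with 2 animals is 0.5, so no test over animals was made, and values are judged against the difference between pups, which may be technical.

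Motile cilia beat because dynein motors, arranged as outer and inner arms along doublet microtubules, slide neighbouring doublets against each other. Radial spokes and a central pair of microtubules regulate the arms, nexin-dynein links hold the doublets together, and molecular rulers set the spacing along the axoneme, the cilium's microtubule core. Multiciliated ependymal cells derive from radial glia and build most of their cilia after birth in the mouse, under the regulator Mcidas and the factors Foxj1, Rfx2 and Rfx3, and their beating moves cerebrospinal fluid. RFX factors bind the X-box, an imperfect inverted repeat, in the promoters of many cilia genes.

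The 5' flanks of the members were searched for the core letters of RFX and forkhead binding motifs, since such factors are among the members. Promoter windows of 250 bases before to 50 after each annotated start were taken from RefSeq (build GRCm38.p6), and 35 of the 42 members matched. Cfap54, Dnaaf1, Dnah3, Foxj1, Rarres2, Rsph1 and Rsph4a are named only. The RFX core GTTGCC, read on either strand (GGCAAC on the other), was present in the windows of 17 of 35 members, or 48.6%, beside 14.1% of 27025 genes. In the 250 bases before the start alone, it was present for 14 members, or 40.0%, beside 11.8% of all genes. The forkhead core TGTTTA, read on either strand (TAAACA on the other), was present for 9 of 35 members, or 25.7%, beside 15.1% of all genes. Ccdc113 held both motifs in 1 window, and Pifo held them in the windows of separate starts; the letters of the motifs cannot overlap. A match is a string of letters and not a measured binding site.

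The upstream 250 bases are shown for the 4 most abundant members with a match there and for the least abundant one, to set the shared letters side by side across members that differ widely in level. All are written 5' to 3' on the gene's strand, with the RFX core in capitals.
Dynlrb2, chr8:116504765-116505014, plus strand: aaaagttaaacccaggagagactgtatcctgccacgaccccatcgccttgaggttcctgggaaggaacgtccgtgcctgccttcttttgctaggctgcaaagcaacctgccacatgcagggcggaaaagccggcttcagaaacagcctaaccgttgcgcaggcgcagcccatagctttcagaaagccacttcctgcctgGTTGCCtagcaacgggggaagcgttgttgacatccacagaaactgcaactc
Tekt2, chr4:126325689-126325938, minus strand: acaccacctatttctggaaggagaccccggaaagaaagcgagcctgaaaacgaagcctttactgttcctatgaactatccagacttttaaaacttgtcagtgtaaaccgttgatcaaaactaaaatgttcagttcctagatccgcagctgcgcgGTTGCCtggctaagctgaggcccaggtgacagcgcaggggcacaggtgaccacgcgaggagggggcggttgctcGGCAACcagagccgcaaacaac
Drc1, chr5:30281143-30281392, plus strand: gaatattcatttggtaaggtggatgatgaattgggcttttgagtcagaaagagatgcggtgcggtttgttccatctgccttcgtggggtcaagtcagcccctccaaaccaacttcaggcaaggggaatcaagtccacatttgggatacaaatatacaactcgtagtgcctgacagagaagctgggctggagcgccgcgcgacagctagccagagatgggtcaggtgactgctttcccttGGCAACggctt
Pifo, chr3:106001498-106001747, minus strand: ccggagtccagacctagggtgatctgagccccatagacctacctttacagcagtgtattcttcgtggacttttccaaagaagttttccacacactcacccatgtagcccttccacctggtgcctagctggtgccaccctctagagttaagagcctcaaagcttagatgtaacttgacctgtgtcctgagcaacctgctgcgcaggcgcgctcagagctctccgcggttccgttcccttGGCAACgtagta
Dnah10, chr5:124724835-124725084, plus strand: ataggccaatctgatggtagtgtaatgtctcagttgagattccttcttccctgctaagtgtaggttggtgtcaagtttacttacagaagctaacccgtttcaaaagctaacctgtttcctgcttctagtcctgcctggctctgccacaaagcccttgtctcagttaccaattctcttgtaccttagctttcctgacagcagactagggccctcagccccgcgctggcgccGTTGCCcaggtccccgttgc
With the annotated start as position 0, the match began at -51 in Dynlrb2, at -11 in Drc1, at -12 in Pifo and at -20 in Dnah10. Tekt2 held a match at -96 and an inverted one at -22, in the window of the start that lies farther upstream. Rfx3 itself held the core after its start, at position 31, and Rfx2 and Mcidas held it upstream. By the way they were chosen, these 5 flanks came from both ends of the abundance range, from Dynlrb2, the second highest member, to Dnah10, the second lowest.

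Levels are given as TPM, an abundance that divides reads by transcript length and is scaled to the same total in every library. The members' TPM summed to 213 in pup 3 and 301 in pup 1, and their reads made up 0.0218% of 40431595 expected counts in pup 3 and 0.0303% of 40066386 in pup 1. The median member stood at 1.76 TPM in pup 3 and 2.57 TPM in pup 1, a mean of 2.16 ± 0.569 TPM (SD, n = 2). All protein-coding genes had a median of 4.05 TPM, and those detected had a median of 17.0 TPM, which 2 members exceeded. Detected here means 1 TPM or more in both pups. It was met by 27 of 42 members, or 64.3%, beside 60.7% of 21474 protein-coding genes, so the members' share was near the background. Another 6 members reached 1 TPM in pup 1 but not in pup 3 (Cfap44, Rsph4a, Cfap46, Mcidas, Cfap70 and Spag17), and 9 stayed under 1 TPM in both pups. No member was at 0 in either pup.

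**Figure D1:**
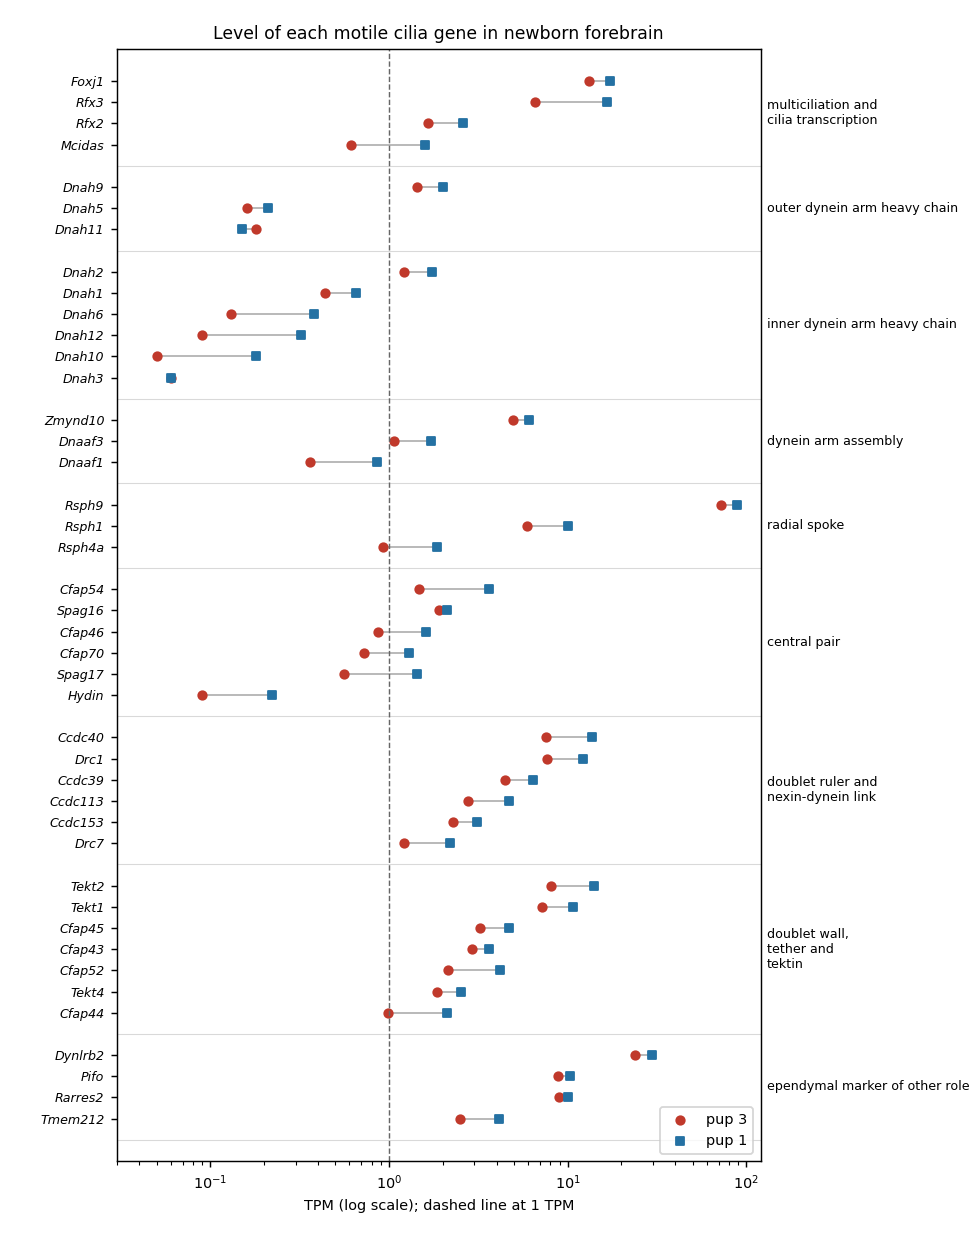
TPM on a log scale for each of the 42 genes, grouped by structural role, with pup 3 as red circles and pup 1 as blue squares joined by a line; the dashed line marks 1 TPM. Radial spoke gene Rsph9 lies far to the right at 72.4 and 88.3 TPM, most dynein heavy chains lie left of the dashed line, and pup 3 lies left of pup 1 for 40 of the 42 genes.

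The plot of levels by role shows members from 0.05 to 88.3 TPM. Members were ranked by mean TPM, and 2 members were taken as ordered where the values of both pups did not overlap. This held for 704 of 861 pairs of members but for only 3 of 41 neighbours in the ranking: Rsph9 over Dynlrb2, Dynlrb2 over Foxj1, and Dnah1 over Dnah6. All other neighbours had overlapping values. The ranks of the members in both pups correlated closely (Spearman's rho 0.977 over 42 genes, which share 2 libraries). Levels ran against transcript length, with a rho of -0.693 between mean TPM and the longest protein-coding transcript over the 42 members and of -0.263 over 12991 detected protein-coding genes. These are correlations across genes, which are not independent replicates. The members were taken at any level but the other genes only where detected, so these rho values rest on unlike sets.

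Foxj1, the forkhead factor that drives the motile cilia programme (chromosome 11, 116330704 to 116335399, build mm10), had 13.1 TPM in pup 3 and 17.3 TPM in pup 1 (15.2 ± 2.96). Rfx3, an X-box binding factor (chromosome 19, 27761721 to 28011166), had 6.55 TPM in pup 3 and 16.7 TPM in pup 1 (11.6 ± 7.18). On ratios of TPM + 0.1, used for all pairs below, Foxj1 was 1.98 times Rfx3 in pup 3 and 1.04 times Rfx3 in pup 1, so their order was not separated from the pup spread, and with counts not divided by length the ratios were 0.982 in pup 3 and 0.583 in pup 1. The related factor Rfx2 had 1.66 TPM in pup 3 and 2.60 TPM in pup 1. Within a library Rfx3 exceeded Rfx2 by 3.78 times in pup 3 and 6.22 times in pup 1, a mean log2 ratio of Rfx2 over Rfx3 of -2.28 ± 0.51 (SD, n = 2); the added 0.1 understates ratios of low genes. A pair ratio was held to exceed the pup spread if its mean passed 3 SD with 1 sign, as here, and 9 of 14 pairs met this.

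Mcidas, a coiled-coil coregulator that starts multiciliogenesis (chromosome 13, 112993845 to 113000394), was the lowest regulator at 0.61 TPM in pup 3 and 1.59 TPM in pup 1. Its expected counts were 39 in pup 3 and 89 in pup 1. Its upstream relative Gmnc was lower still, at 0.10 TPM in pup 3 and 0.14 TPM in pup 1. Mcidas exceeded Gmnc by 3.55 times in pup 3 and 7.04 times in pup 1, past the 3 SD rule with a pseudocount of 0.1 but not with 1. Further genes of multiciliated cell formation, outside the members, were also measured. Ccno, a cyclin-like protein needed for centriole production, had 2.12 TPM in pup 3 and 2.87 TPM in pup 1. Deup1, a component of deuterosomes on which centrioles form, had 2.65 TPM in pup 3 and 4.02 TPM in pup 1, and Trp73, a transcription factor of the same programme, had 2.95 and 3.53 TPM in pups 3 and 1. Myb, which acts early in the programme, had 0.68 TPM in pup 3 and 1.36 TPM in pup 1.

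The dynein heavy chains, the motors themselves, were the lowest group. Over all 9 chains the median was 0.16 TPM in pup 3 and 0.32 TPM in pup 1, and only Dnah9 and Dnah2 were detected on gene totals. With protein-coding transcripts alone neither was detected. Dnah9 then had 0.55 TPM in pup 3 and passed 1 TPM in pup 1 only, and Dnah2 had 0.28 TPM in pup 3 and 0.44 TPM in pup 1. Among the outer arm chains, Dnah9 had 1.44 TPM in pup 3 and 2.00 TPM in pup 1, against 0.16 and 0.21 TPM for Dnah5 and 0.18 and 0.15 TPM for Dnah11 in the same order of pups. Dnah9 and Dnah5 encode outer arm motors, and Dnah9 is the one restricted in human airway cilia to the distal part of the axoneme. The ratio of Dnah9 over Dnah5 was 5.92 in pup 3 and 6.77 in pup 1, a mean log2 ratio of 2.66 ± 0.14. With protein-coding transcripts alone it was 2.5 in pup 3 and 3.58 in pup 1, and with counts not divided by length 1.83 and 2.04, so its size depended on the transcripts to which reads were assigned. Dnah11 and Dnah5 were not separated from the pup spread on TPM (log2 ratio of Dnah11 over Dnah5 -0.10 ± 0.30), but the ratio passed the 3 SD rule in opposite directions under the alternatives. It was 0.56 ± 0.13 with posterior mean TPM, -1.10 ± 0.20 with protein-coding transcripts alone and -1.59 ± 0.45 with counts not divided by length, so no order can be given.

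Among the inner arm chains, Dnah2 had 1.22 TPM in pup 3 and 1.73 TPM in pup 1, and Dnah1 had 0.44 TPM in pup 3 and 0.65 TPM in pup 1. Dnah6 had 0.13 TPM in pup 3 and 0.38 TPM in pup 1. Dnah12 had 0.09 TPM in pup 3 and 0.32 TPM in pup 1, from 16 expected counts (95% exact Poisson interval 9.15 to 26.0) and 49 (36.3 to 64.8). Dnah10 had 0.05 TPM in pup 3 and 0.18 TPM in pup 1, and Dnah3 had 0.06 TPM in both. The counts of Dnah3, 19 in pup 3 (interval 11.4 to 29.7) and 17 in pup 1 (9.90 to 27.2), lay within each other's intervals, which cover counting error only. Dnah3 shares 10.5% of its exonic bases with Lyrm1 on the opposite strand, at 20.65 TPM in pup 3 and 23.45 TPM in pup 1. Reads of such partners may not be told apart. The deposited TPM has 2 decimals, so ratios of the lowest chains are coarse. The 9 chains together held 631 expected counts in pup 3 and 913 in pup 1, from transcripts whose longest coding forms had a median of 13704 nt.

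Assembly factors, which help to preassemble dynein arms in the cytoplasm, had a median of 1.07 TPM in pup 3 and 1.72 TPM in pup 1. On gene totals Dnaaf1 lay below Dnah9 and Dnah2, while the values of Dnaaf3 overlapped those of both chains. With protein-coding transcripts alone Dnaaf3 lay above Dnah9 and Dnah2, and the values of Dnaaf1 overlapped those of both. Zmynd10 had 4.92 TPM in pup 3 and 6.07 TPM in pup 1, Dnaaf3 had 1.07 and 1.72 TPM, and Dnaaf1 had 0.36 and 0.86 TPM in the same order. Dnaaf3 exceeded Dnaaf1 by 2.54 times in pup 3 and 1.90 times in pup 1 (log2 ratio of Dnaaf1 over Dnaaf3 -1.13 ± 0.30), past the 3 SD rule, but not with counts not divided by length (-0.93 ± 0.40). Dnaaf1 shares 20.7% of its exonic bases with Taf1c on the opposite strand, which had 8.88 TPM in pup 3 and 10.0 TPM in pup 1. The sources used here do not say whether the authors' counting used strand, so reads of such partners cannot be told apart.

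The radial spoke genes spanned the widest range. Rsph9, a spoke head protein (chromosome 17, 46122035 to 46144216), was the highest member at 72.4 TPM in pup 3 and 88.3 TPM in pup 1 (80.4 ± 11.2), and alone made up 34.0% of the members' summed TPM in pup 3 and 29.3% in pup 1. Rsph1, also of the spoke head, had 5.91 TPM in pup 3 and 10.0 TPM in pup 1. Rsph4a had 0.93 TPM in pup 3 and 1.86 TPM in pup 1. These 3 partners of the spoke head were thus present in unequal amounts of RNA. Rsph9 exceeded Rsph4a by 70.4 times in pup 3 and 45.1 times in pup 1, a mean log2 ratio of Rsph4a over Rsph9 of -5.82 ± 0.45. Rsph4a exceeded Rsph6a, its testis relative, by 5.72 times in pup 3 and 6.53 times in pup 1 (2.61 ± 0.14), where Rsph6a had 4 expected counts in pup 3 and 11 in pup 1. The ratio was 3.75 in pup 3 and 4.13 in pup 1 with posterior mean TPM, and 1.79 and 2.38 with a pseudocount of 1, still past the 3 SD rule.

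Central pair genes had a median of 0.795 TPM in pup 3 and 1.53 TPM in pup 1. Cfap54, a projection protein (chromosome 10, 92775619 to 93081618), had 1.47 TPM in pup 3 and 3.62 TPM in pup 1. Spag16 had 1.90 and 2.11 TPM, and Cfap46 had 0.87 and 1.62 TPM, in pups 3 and 1. The remaining members of the group lay lower. Cfap70 had 0.72 TPM in pup 3 and 1.29 TPM in pup 1, and Spag17, a central apparatus scaffold, had 0.56 TPM in pup 3 and 1.44 TPM in pup 1. Spag17 shares 9.66% of its exonic bases with Wdr3 on the opposite strand, at 15.35 TPM in pup 3 and 19.45 TPM in pup 1. Hydin, whose loss in mice causes hydrocephalus, had 0.09 TPM in pup 3 (40 counts, interval 28.6 to 54.5) and 0.22 TPM in pup 1 (85 counts, 67.9 to 105). Spag17 and Spag16 were not separated from the pup spread on gene totals. With protein-coding transcripts alone Spag17 was 0.13 times Spag16 in pup 3 and 0.207 times in pup 1 (log2 -2.61 ± 0.48), past the 3 SD rule.

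All 6 members of the doublet ruler and nexin-dynein link group were detected, with a median of 3.62 TPM in pup 3 and 5.52 TPM in pup 1. Ccdc40 had 7.56 TPM in pup 3 and 13.6 TPM in pup 1, and its partner in the ruler, Ccdc39, had 4.47 TPM in pup 3 and 6.37 TPM in pup 1. On gene totals Ccdc39 was 0.597 times Ccdc40 in pup 3 and 0.471 times in pup 1 (log2 -0.92 ± 0.24), past the 3 SD rule. With protein-coding transcripts alone the order was the other way round, Ccdc39 at 1.73 times Ccdc40 in pup 3 and 1.48 times in pup 1, and with counts not divided by length the ratios were 1.06 and 0.866. The order of these partners therefore cannot be read from gene totals. Drc1, of the nexin-dynein regulatory complex, had 7.66 TPM in pup 3 and 12.2 TPM in pup 1, against 1.22 and 2.18 TPM for Drc7 of the same complex. Drc1 was 5.88 times Drc7 in pup 3 and 5.38 times in pup 1, a log2 ratio of 2.49 ± 0.09, and each gene had 1 transcript. Ccdc113 had 2.76 and 4.67 TPM, and Ccdc153 had 2.27 and 3.10 TPM, in pups 3 and 1.

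Of the doublet wall, tether and tektin genes 6 of 7 were detected, with Cfap43 counted on its gene total. Tekt2 and Tekt1, of the tektins, filament proteins inside the doublets, led the group. Tekt2 had 8.03 TPM in pup 3 and 14.03 TPM in pup 1, Tekt1 had 7.16 and 10.8 TPM, and Tekt4 had 1.86 and 2.53 TPM in the same order. Tekt2 and Tekt1 were not separated from the pup spread, whereas Tekt4 lay below both in each pup. Cfap45 and Cfap52, which bind inside the doublets, had 3.21 and 2.15 TPM in pup 3 and 4.72 and 4.17 TPM in pup 1. The tether gene Cfap44 had 0.99 TPM in pup 3 and 2.12 TPM in pup 1. Cfap43 is described below with its transcripts.

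The other ependymal markers were detected throughout. Dynlrb2, a roadblock-type dynein light chain (chromosome 8, 116504974 to 116515915), had 23.7 TPM in pup 3 and 29.6 TPM in pup 1 (26.6 ± 4.14). Its paralog Dynlrb1, a subunit of cytoplasmic dynein in all cells, had 834 TPM in pup 3 and 684 TPM in pup 1, which is 35.0 times Dynlrb2 in pup 3 and 23.0 times in pup 1. Pifo, a basal body protein, had 8.83 TPM in pup 3 and 10.3 TPM in pup 1, and Tmem212, a membrane protein used as an ependymal marker, had 2.48 and 4.11 TPM in the same order. Rarres2, which encodes chemerin, had 8.98 TPM in pup 3 and 9.98 TPM in pup 1, and shares 33.6% of its exonic bases with Lrrc61 on the opposite strand, at 12.7 TPM in pup 3 and 16.3 TPM in pup 1. Each of the 6 ependymal markers among the members (Foxj1, Ccdc153, Tmem212, Rarres2, Dynlrb2 and Pifo) was thus above 1 TPM in both pups.

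The transcript tables show from which transcripts these levels came. The 42 genes had 144 transcripts. In 18 genes there was 1 transcript, and in 24 several. The leading transcript was protein-coding in both pups for 32 of the 42 genes. Over the 24 genes with several transcripts, protein-coding ones made up a median of 80.7% of a gene's TPM, beside 94.5% over 9516 detected protein-coding genes with several transcripts. The 24 members include some that were not detected, so these medians rest on unlike sets. On the mean of both pups, under 50% of TPM came from protein-coding transcripts in 8 members: Dnah9, Dnah11, Dnah2, Spag17, Cfap46, Ccdc40, Cfap43 and Cfap44.

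**Figure D2:**
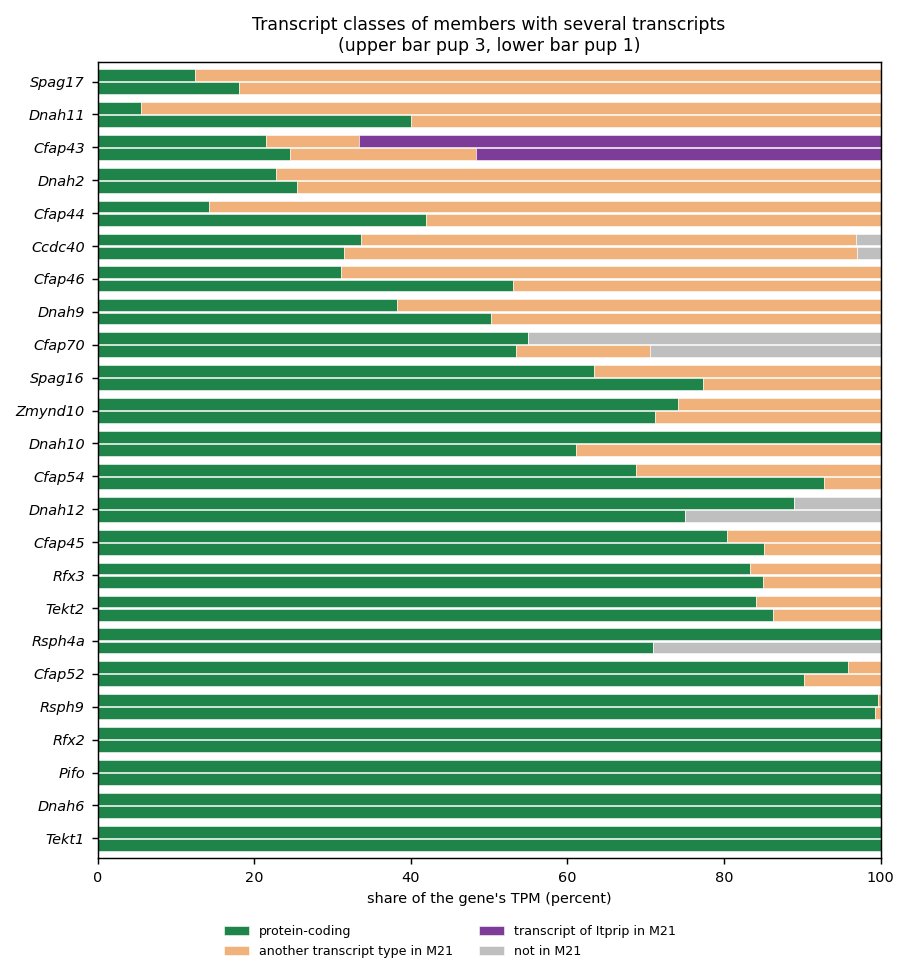
Share of each gene's TPM, in percent, by annotated transcript type in GENCODE M21, for the 24 members with several transcripts; the upper bar of each pair is pup 3 and the lower bar pup 1. Green protein-coding shares are smallest at the top, 12.5% and 18.1% for Spag17, and fill the bars of Pifo and Tekt1 at the bottom.

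In Spag17, protein-coding transcripts held 12.5% of the TPM in pup 3 and 18.1% in pup 1, and a processed transcript of 651 nt, Spag17-201, held 58.8% and 51.4%. In Dnah2 they held 22.8% in pup 3 and 25.4% in pup 1, and the leading transcript, the 2616 nt Dnah2-203, was a processed transcript with 45.6% and 40.1%. Most of the TPM of Spag17 and Dnah2 thus came from transcripts annotated as other than protein-coding, but most of their expected counts did not. In Dnah9 a retained intron transcript of 1797 nt, Dnah9-205, held 59.4% in pup 3 and 48.4% in pup 1, while Dnah9-201 of 13798 nt held 10.5% and 9.78%. In Ccdc40 a processed transcript of 1662 nt held 35.9% in pup 3 and 32.5% in pup 1, and protein-coding transcripts held 33.6% and 31.4%. TPM counts a short transcript as much as a long one, so few reads on a short form weigh heavily. In Spag17, protein-coding transcripts held 15.97 of 23.66 expected counts in pup 3 and 50.72 of 67.11 in pup 1. In Dnah2 they held 104.5 of 152.9 expected counts in pup 3 and 150.01 of 205.73 in pup 1.

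The leading transcript differed between the pups in 7 members. In Cfap44 it was the 593 nt Cfap44-207, a non-stop decay form with 70.0% of the TPM, in pup 3, and the protein-coding Cfap44-202 of 6199 nt with 40.3% in pup 1. In Cfap46 it was a retained intron form of 1133 nt with 53.9% in pup 3, and the coding Cfap46-202 with 47.9% in pup 1. In Cfap70 it was a 916 nt transcript not in M21 with 44.9% in pup 3, and the coding Cfap70-203 with 49.9% in pup 1. In pup 3 the gene totals of Cfap44, Cfap46 and Cfap70 were 45, 56 and 46 expected counts. Their leading transcripts held 9.61, 13.56 and 7.4 of these. More counts lay on the coding Cfap44-201 (25.76), Cfap46-202 (31.81) and Cfap70-201 (28.25). Dnah11 led with the 680 nt processed transcript Dnah11-203 at 66.5% in pup 3 and with the coding Dnah11-201 at 41.9% in pup 1. Dnah10 led with its 14038 nt coding transcript at 100% in pup 3 and with the 550 nt Dnah10-202 at 40.5% in pup 1. These short forms led on very few reads. Dnah11-203 held 2.01 expected counts in pup 3, against 5.49 for Dnah11-201. Dnah10-202 held 0.82 expected counts in pup 1, against 21.06 for Dnah10-201. In Rfx2 and Rfx3 both leading forms were protein-coding. Rfx2-201 held 53.9% of Rfx2 in pup 3 and Rfx2-202 held 71.9% in pup 1. Rfx3-202, of 9146 nt, held 38.9% of Rfx3 in pup 3, and Rfx3-208, of 2743 nt, held 31.9% in pup 1.

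Cfap43, the partner of Cfap44 in a tether of inner dynein arms known from Tetrahymena and Chlamydomonas (chromosome 19, 47736857 to 47919287), had 2.93 TPM in pup 3 and 3.62 TPM in pup 1. In both pups its leading transcript was Itprip-201, which M21 assigns to Itprip, a gene on the same strand that shares exonic bases with Cfap43 and has no row of its own in the gene tables. It held 66.6% of the TPM in pup 3 and 51.6% in pup 1, with 201 expected counts in pup 3 and 170 in pup 1. Without it Cfap43 had 0.98 TPM in pup 3 and 1.75 TPM in pup 1, and so was not detected. Transcripts of another gene by M21 were found in 145 genes with a mean of 1 TPM or more, or 0.968% of such genes.

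The members were next compared between the pups, which differ only as individuals according to the labels. A mean of 1 TPM or more was met by 33 members. All 33 were lower in pup 3 than in pup 1 on deposited TPM, beside 80.4% of 14985 genes at that level, but after TMM scaling of the counts 28 of 33 were lower, or 84.8%, beside 47.4% of all genes. The 5 whose direction turned were Rsph9, Pifo, Rarres2, Cfap43 and Spag16, but without Itprip-201 the expected counts of Cfap43 were 69 in pup 3 and 115 in pup 1. The scaling moved the median of all genes from -0.27 to 0.02 on the log2 scale of pup 3 over pup 1, and the members' median from -0.64 to -0.37. The members' median thus lay below that of all genes by a similar distance on both scales. Deposited intervals that did not overlap, with pup 3 lower, were found for 17 of 33 members, or 51.5%, near the 48.0% of all genes.

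A difference was called where the mean was 1 TPM or more, the ratio of TPM + 0.1 was 2-fold or more and the deposited intervals did not overlap. This was met by 3 of 33 members, or 9.09%, beside 3.98% of all genes in either direction and 3.85% with pup 3 lower. Rfx3 had a log2 ratio of pup 3 over pup 1 of -1.34 on TPM and -0.85 after TMM scaling. Mcidas had -1.25 and -1.03, and Cfap54 had -1.24 and -0.94 on the same scales, so with TMM scaling Mcidas alone met the rule. The intervals under TMM scaling stayed those of the deposited TPM. Spag17 (-1.22 on TPM, -1.31 after TMM scaling) and Cfap44 (-1.03 and -1.73) passed the fold on both scales but had overlapping intervals. Among the 9 members under 1 TPM, to which the rule was not applied, Dnaaf1 and Dnah6 passed the fold with intervals apart and both had a log2 TPM ratio of -1.06. Dnah11 was the 1 member higher in pup 3 on TPM (log2 ratio 0.16), although its expected counts were 18.5 in pup 3 and 33.5 in pup 1.

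**Figure D3:**
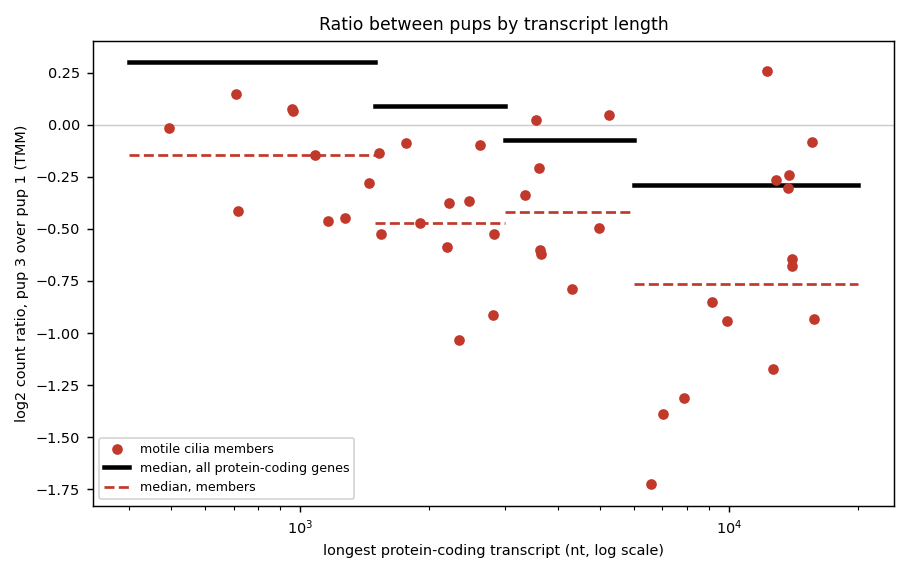
Log2 ratio of pup 3 over pup 1 after TMM scaling of expected counts, against the length of the longest protein-coding transcript in nt on a log scale; circles are the 42 members, solid black lines the median of all protein-coding genes and dashed red lines the median of the members in each of 4 length classes. The black lines step down from 0.30 to -0.29 with length, and the red dashed line lies below the black one in every class.

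The ratio between the libraries moved with transcript length over all genes, as the plot of ratio by length shows. Genes with at least 20 expected counts over both pups were used, which all 42 members met. Up to 1500 nt the median log2 ratio after TMM scaling was 0.30 over 2262 genes, of which 19.8% were lower in pup 3. Over 9 members it was -0.14, and 6 of them were lower. From 1500 to 3000 nt it was 0.09 over 5186 genes, of which 37.2% were lower in pup 3. Over 11 members it was -0.47, and all 11 were lower. From 3000 to 6000 nt it was -0.07 over 5807 genes, of which 60.8% were lower in pup 3. Over 8 members it was -0.42, and 6 of them were lower. Above 6000 nt it was -0.29 over 1822 genes, of which 87.1% were lower in pup 3, and -0.76 over 14 members, of which 13 were lower. The members' median lay below the genes' median in each class. The other motile cilia genes, described next, had medians of -0.22, -0.14, -0.29 and -0.27 in the same order of classes, the last over 3 genes. Within a class, members and genes were matched neither in length nor in level, and the class above 6000 nt has no upper limit. The members' median level was 8.955, 3.16, 2.07 and 0.4 TPM in the same order of classes. Over the genes it was 31.5, 15.2, 10.8 and 7.14 TPM. The part of RNA length or quality in the members' ratios was not tested.

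The other motile cilia genes were a list of 81 names, of which 77 were measured (Dnai1, Dnai2, Cfap47 and Cfap99 were not matched). Of these 52, or 67.5%, were detected, with a median of 2.27 TPM in pup 3 and 3.37 TPM in pup 1. The 3 highest were Cfap20, a doublet protein also found in non-motile cilia (77.1 TPM in pup 3, 93.5 in pup 1), Tppp3, a tubulin polymerisation protein (62.4 and 92.7 in the same order), and Gas8, of the nexin-dynein complex (38.37 and 45.02 in the same order). Gmnc was the lowest. Of 59 genes with a mean of 1 TPM or more, 58 were lower in pup 3 on TPM and 43 after TMM scaling, and 1, Ak7, met the rule for a difference (0.69 TPM in pup 3, 1.61 in pup 1).

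**Figure D4:**
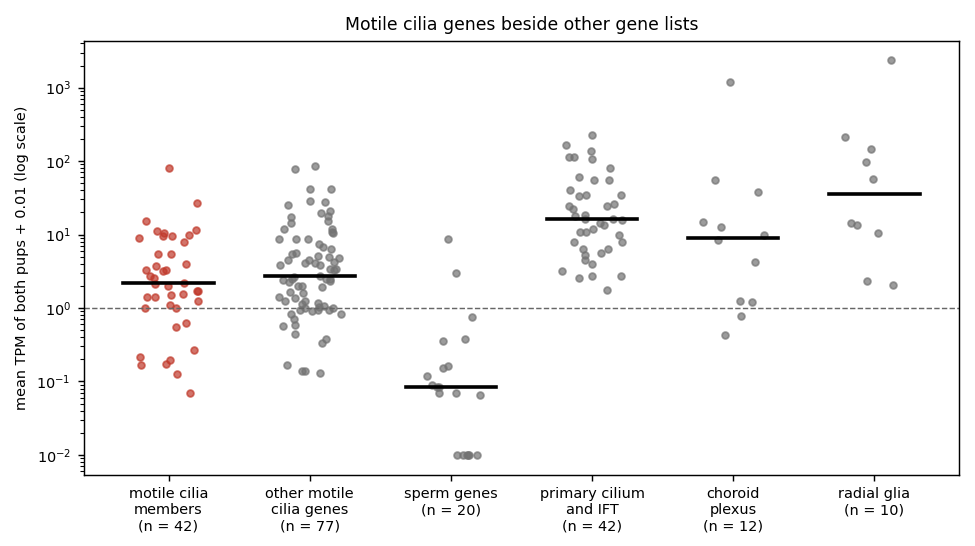
Mean TPM of both pups plus 0.01, on a log scale, for each gene of 6 lists, with a black line at the list's median and a dashed line at 1 TPM. Members and other motile cilia genes have medians of 2.16 and 2.67 TPM, sperm genes lie near 0, and primary cilium genes have a median of 16.3 TPM.

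Genes of primary cilia and intraflagellar transport, the machinery that most cells of the brain use, stood higher. All 42 were detected, with a median of 14.5 TPM in pup 3 and 18.4 TPM in pup 1. Kif3a, a kinesin motor subunit, had 189 TPM in pup 3 and 271 TPM in pup 1, Arl3 had 155 and 177 TPM, Ift46 had 136 and 136 TPM, and the lowest, Cep290, had 1.41 and 2.14 TPM in the same order. Of these 42 genes 39 were lower in pup 3 on TPM and 24 after TMM scaling. Dync2h1, the motor of retrograde transport, met the rule for a difference at 5.09 TPM in pup 3 and 10.5 TPM in pup 1.

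Sperm genes were used as a check on the axonemal genes that sperm tails share. Of 20 measured, 2 were detected, and the median was 0.055 TPM in pup 3 and 0.09 TPM in pup 1. Tnp1, Tnp2, Akap4, Smcp, Acrv1 and Pgk2 had 0 counts in both pups, which allows up to 3 counts per library. Tekt5 had 7.20 TPM in pup 3 and 10.2 TPM in pup 1, Tssk6 had 2.43 and 3.54 TPM, and the next, Zpbp, had 0.71 and 0.78 TPM in the same order.

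Genes of the cell types around the ventricles were present beside the members. Of 12 choroid plexus genes 9 were detected. Their TPM summed to 1172 in pup 3 and 1496 in pup 1, most of it Ttr, the thyroid hormone carrier (1043 TPM in pup 3 and 1335 in pup 1). Enpp2 had 52.5 and 56.9 TPM, Folr1 had 31.95 and 43.06 TPM, and the lowest, Kl, had 0.33 and 0.52 TPM in pups 3 and 1. All 10 choroid plexus genes with a mean of 1 TPM or more were lower in pup 3 on TPM and 7 were after TMM scaling, with a median log2 ratio of -0.15. Choroid plexus epithelium also bears motile cilia, and its part in the members' levels was not tested. All 10 radial glia genes were detected, led by Fabp7 (2433 TPM in pup 3, 2258 in pup 1), Vim (189 and 237 in the same order) and Slc1a3 (123 and 166), with Fam107a lowest (1.69 and 2.44), and their median TMM log2 ratio was 0.04. Of 10 genes used as ependymal markers outside the axoneme 8 were detected, and of the 9 with a mean of 1 TPM or more, 8 were lower in pup 3 on TPM and 7 after TMM scaling, with a median TMM log2 ratio of -0.41. Cd24a had 734 TPM in pup 3 and 576 TPM in pup 1, Gfap had 26.5 and 45.7 TPM and Sox9 had 24.7 and 40.4 TPM in the same order, all of them also expressed by other neural cells, and the lowest, Krt15, had 0.39 and 0.15 TPM. Ak7, Cfap126 and Meig1 stand in this list and in that of other motile cilia genes.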

How the data were processed

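Total RNA of 2 newborn mouse forebrains, 1 library each, was measured. Per the labels, RNA longer than 200 nt was used, 10 ng went into each library and ERCC spike-ins were added. The deposited notes give mm10 and GENCODE M4 for the quantification, with aligner, quantifier, versions and strand setting not given in the sources used here. Expected counts were deposited per gene and transcript by the authors; they divide shared reads and need not be whole (33 members had whole counts in both pups, within 0.005). They deposited TPM, which sums to 1000000 per library, with interval bounds of unstated level around a posterior mean TPM, and each transcript's share of its gene's TPM as a percent.

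Symbols and positions came from GENCODE M21 (GRCm38), matched without version. Entries that are not genes held 0.000693% of the counts in pup 3 and 0.000845% in pup 1 and were left out. Ratios used TPM + 0.1; TMM factors came from edgeR 4.0.16 and size factors from DESeq2 1.42.0 (R 4.3.3) on expected counts rounded to whole numbers, and other steps used Python 3.11.15, pandas 2.3.3 and scipy 1.17.1. No test between conditions was possible with 1 group. The named genes were all members by role, the 3 highest and the lowest of each other list, the genes of described pairs, and members with a call, under 1 TPM, or with a differing or noncoding leading transcript. Some genes fall outside this rule and were named after their values were seen. They are genes of the other lists that met the rule for a difference (Ak7, Dync2h1) and multiciliogenesis genes (Ccno, Deup1, Trp73, Myb, Cdc20b, E2f4, E2f5). The Dnah7 copies and the antisense partners Taf1c, Lrrc61, Lyrm1 and Wdr3 are the others. The members and lists were chosen with earlier results of these data known. Alternatives were other scalings, thresholds, pseudocounts and filters, posterior mean TPM, protein-coding transcripts only, an exact binomial test, which compares the reads of 2 libraries and not conditions, and each pup alone.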

Additional observations from a re-analysis of the deposited data

How the results depend on the processing

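No paired analysis was possible because both pups form 1 group. Of the 14 pairs, 9 passed the 3 SD rule, against 8 with a pseudocount of 1, 10 with posterior mean TPM, 11 with protein-coding transcripts alone and 8 with counts not divided by length. The mean ratio changed sign for Ccdc39 over Ccdc40 with protein-coding transcripts alone, for Dnah11 over Dnah5 with posterior mean TPM and for Foxj1 over Rfx3 with counts not divided by length, with values given above. The count of members that differed between the pups, 3, was 13 with a 1.5-fold threshold (16.9% of all genes called), 5 without the interval criterion (5.45%), 5 with an exact binomial test on the reads of the 2 libraries (4.49%), 1 with TMM scaling (1.47%), 1 with DESeq2 size factors (1.44%), 1 with a pseudocount of 1 (1.80%) and 5 with no filter on low values (2.30%). The member called was Mcidas under both scalings and Rfx3 under the pseudocount of 1. The members' median log2 ratio, -0.64, was -0.37 with TMM scaling, -0.37 with DESeq2 size factors, -0.24 with ERCC scaling, which rests on 278 spike-in counts in pup 3 and 334 in pup 1, and -0.44 with a pseudocount of 1. All 42 members were detected where 10 expected counts in both pups was the criterion, against 27 by TPM. No share over all genes is at hand for the count criterion, so this is not read as a trait of the members. By TPM, 26 were detected with transcripts of other M21 genes left out, and 24 with protein-coding transcripts alone. The median level was 3.28 TPM over members with a mean of 1 TPM or more, against 2.16 TPM over all. With each pup alone the members detected were 27 and 33, the median level was 1.76 and 2.57 TPM, and the other motile cilia genes detected were 52 and 66. The central pair median fell to 0.553 TPM with protein-coding transcripts alone, against 1.13 TPM over all transcripts. Under the alternatives, 31 values of the main results were held to be the same as in the main setting, and 13 moved. Among values of single roles, lists and called members, 60 were the same, 6 moved and 6 ratios of called members fell under 2-fold. For counts and shares, being the same meant within 1.5-fold of the main value. For ratios of called members it meant staying at 2-fold or more. For levels it meant a move smaller than the SD of the pup medians, and for the median ratio a move within a small fixed tolerance. The cause of these shifts was not tested. Expected counts were lowest for Dnah12, Dnah3, Dnah11, Dnah10, Spag17 and Dnaaf1, from 16 to 27.5 in pup 3, which limits the precision of their ratios.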

Other observations

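Dnah7a, an inner arm heavy chain outside the members, had 12.5 TPM in pup 3 and 11.4 TPM in pup 1, but its protein-coding transcripts had 0.02 TPM in pup 3 and 0.07 TPM in pup 1. Its expected counts were 230 in pup 3 and 199 in pup 1, and its mean assigned transcript length was 753 nt in pup 3 and 798 nt in pup 1. Its near-identical copies Dnah7b and Dnah7c had 0.62 and 0.12 TPM in pup 3 and 1.35 and 0.14 TPM in pup 1, and the division of reads among these copies is uncertain. Cdc20b, whose locus is active in multiciliated cells, had 0.26 TPM in pup 3 and 0.86 TPM in pup 1, while the cell cycle factors E2f4 and E2f5, which also act in multiciliogenesis, had 25.1 and 15.6 TPM in pup 3 and 25.5 and 19.6 TPM in pup 1. Exonic bases were shared with another gene in 18 members, on the opposite strand in 17 of them.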
